A study of Arabidopsis thaliana with 19 samples.

Results

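The H3K27me1 peaks of the pericentromeres were mapped in sperm nuclei of Arabidopsis thaliana, as the peaks of the authors' narrow H3K27me1 list whose summit lay in a window around a centromere. The windows ran from 13 to 17 Mb on chromosome 1, 2 to 7 Mb on chromosome 2, 11 to 16 Mb on chromosome 3, 3 to 6 Mb on chromosome 4 and 10 to 14.5 Mb on chromosome 5, and only position decided which peaks were taken. They held 3805 of the 13130 peaks of that list (29.0%, exact binomial 95% interval 28.2 to 29.8%), and the 8 peak lists of the series held 70802 peaks. By chromosome there were 654, 879, 979, 556 and 737 pericentromeric peaks on chromosomes 1 to 5.

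H3K27me1, a single methyl group on lysine 27 of histone H3, is a mark of heterochromatin in Arabidopsis. It is laid down by the methyltransferases ATXR5 and ATXR6 on the replication-dependent histone H3.1, and plants without both enzymes lose silencing and over-replicate heterochromatin. Pericentromeres are the transposon-rich flanks of the centromeres, where most sequence is kept silent by DNA methylation and methylation of H3 lysine 9.

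All samples came from the ecotype Col-0, labelled wild type, and all carried the transgene ProHTR10:HTR10-Clover, a fluorescent fusion of the sperm histone H3.10 used to sort the nuclei. Chromatin was cut to mononucleosomes with micrococcal nuclease and sequenced as paired reads of 50 bp. Per the sample descriptions, the 2 H3K27me1 immunoprecipitations were made from the chromatin of Input_A replicates 1 and 3, the 2 of H3K27me3 from that of Input_A replicates 2 and 3, and the 3 each of H3K4me3 and H3K27ac from all 3. H3.10, precipitated with an antibody to GFP from the 3 Input_B preparations, was not analysed here.

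Each peak list covers all immunoprecipitations of its mark, so no value has an error between replicates and no test between samples could be made. The depth per sample is unknown from these lists. Intervals are 95% intervals, exact binomial for shares and from order statistics for medians, and they cover the counting of peaks or genes only. The fold of a peak is the authors' ratio of signal in the immunoprecipitation over what the control predicts, and coordinates are the authors' on TAIR10.

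The windows fitted their name in gene content. They held 3173 of 4843 annotated pseudogenes and transposon genes, 148 per Mb in the windows and 17.1 per Mb outside. Protein-coding genes stood at 70.6 per Mb in the windows and 266 per Mb outside. The windows had been drawn around stretches with few protein-coding genes, so this second difference follows from how they were chosen. The gene table does not set transposon genes apart from other pseudogenes, and both are counted together below.

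H3K27me1 peaks covered most of the pericentromeric sequence of sperm. They lay over 12.998 Mb of the 21.5 Mb in the windows (60.5%), against 11.8% of the sequence outside. The windows made up 18.0% of the 119 Mb spanned by genes and peaks, and their peaks held 53.0% of all bases of the list. Peaks were also denser, with 177 per Mb in the windows and 95.5 per Mb outside.

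Coverage differed between the chromosomes. It was highest on chromosome 3 (66.4%, against 10.6% outside the window) and chromosome 4 (66.2%, against 15.1%). Chromosome 2 had 61.2% in its window and 12.7% outside, and chromosome 5 had 59.1% and 10.7%. Chromosome 1 was lowest inside its window, at 49.4% against 11.2%. Each window was thus covered at more than the level of any chromosome outside.

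In steps of 100 kb the coverage was uneven. Over the 215 steps in the windows the quartiles were 47.4%, 65.4% and 76.8%, and over the 973 steps outside the median was 9.25%. The fullest step lay on chromosome 5 from 12900001 to 13000000, with 94.0% under peaks, and 7 steps reached 90%. At the other end 14 steps were covered to less than 20%, and 3 had no peak at all. Those 3 empty steps were on chromosome 1 from 15300001, chromosome 2 from 3400001 and chromosome 5 from 14400001.

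**Figure D1:**
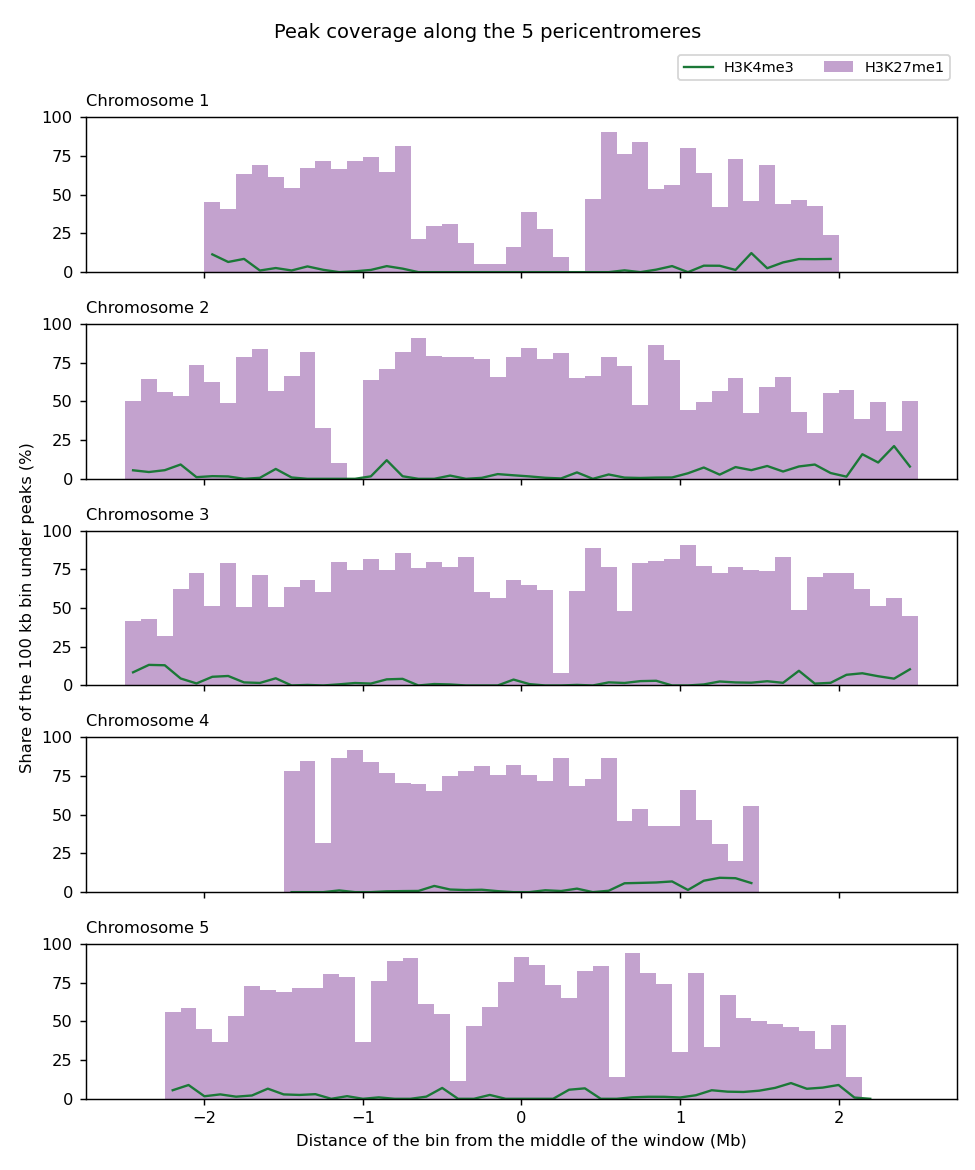
Share of each 100 kb step under narrow H3K27me1 peaks (purple bars) and under narrow H3K4me3 peaks (green line), by distance in Mb from the middle of each window, with 1 panel per chromosome. Purple coverage has a median of 65.4% over the 215 steps and drops to 0% in 3 of them. The green line reaches at most 21.1%, on chromosome 2 in the step from 6800001.

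The low stretch of chromosome 1 took in much of the middle of its window. From 14700001 to 14900000 its 2 steps had 5.54% and 5.05% under peaks, and neither had any H3K4me3. On chromosome 3 a single step from 13700001 stood at 8.08%, between neighbours that were well covered. Steps rich in pseudogenes and transposon genes were the more fully covered ones (Spearman's rho 0.742 over 215 neighbouring steps of the same libraries, a description without a test). With the number of protein-coding genes rho was −0.396 over all 215 steps, but it ranged from 0.273 on chromosome 1 to −0.793 on chromosome 2. The chromosome 2 value took in the steps from 3200001 to 3500000. These held 27, 29 and 36 protein-coding genes, with 32.9%, 10.2% and 0% under peaks.

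The borders of the windows were not borders of the mark. In the 500 kb just inside a border coverage ran from 27.5% to 74.6%, and in the 500 kb just outside from 25.6% to 43.3%. Coverage was higher inside than outside at 9 of the 10 borders, and the exception was the right border of chromosome 5, with 27.5% inside and 30.2% outside. Outside the windows 15 steps of 100 kb were covered to at least 50%, and 9 of these lay on the short arm of chromosome 4 between 1600001 and 2900000, with up to 79.1%.

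Peaks next to a border looked alike on its sides. The outermost peaks taken had widths from 410 to 14504 bp and folds from 2.04 to 3.16. The nearest peaks left out had widths from 332 to 18209 bp and folds from 2.04 to 3.40. On chromosome 4, for example, the first peak taken ran from 3014544 to 3015703 and its neighbour to the left, left out by its summit, from 2995370 to 3013578.

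Pericentromeric peaks were wide. Their width ran from 324 to 59528 bp with quartiles of 809, 1896 and 4480 bp. Outside, the quartiles were 538, 868 and 1423 bp and the widest peak had 33980 bp. The interval of the median was 1802 to 2007 bp in the windows and 850 to 881 bp outside, so the medians differed by far more than counting error.

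The difference grew with width. Of the pericentromeric peaks 48.6% were at least 2 kb wide (interval 47.0 to 50.2%), against 13.3% outside (12.6 to 14.0%). At 5 kb or more it was 830 peaks (21.8%) in the windows and 203 (2.18%) outside, and at 10 kb or more 253 and 31. Among the 100 widest peaks of the list 94 lay in the windows. Narrow peaks under 500 bp made up 10.99% in the windows and 21.4% outside.

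A small number of wide peaks held much of the covered sequence. The 586 widest (15.4% of the pericentromeric peaks) held 50% of their bases. Peaks of at least 5 kb held 60.7% of the bases and those of at least 10 kb held 29.3%, while the peaks under 500 bp held 1.31%. Median widths were close across chromosomes, at 1732, 1914, 1971, 1825 and 2006 bp on chromosomes 1 to 5, so the lower coverage of chromosome 1 did not go with a similarly lower median width.

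Enrichment was modest and differed less than width. The fold ran from 1.35 to 4.53 with quartiles of 2.04, 2.34 and 2.69 in the windows. Outside it had quartiles of 1.90, 2.17 and 2.55 and reached 5.56. The interval of the median was 2.33 to 2.36 in the windows and 2.16 to 2.18 outside. A fold of at least 3 was reached by 9.67% of the pericentromeric peaks and 7.75% of the others, and only 34 of the 100 peaks of highest fold lay in the windows. The median −log10 q was 10.8 in the windows and 8.51 outside.

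Fold went with width. Over the 3805 pericentromeric peaks Spearman's rho of width and fold was 0.662 and Pearson's r with log2 width was 0.625, and outside rho was 0.640. These are descriptions over peaks of the same libraries, without a test. At like width, however, the pericentromeric peaks did not have the higher folds. Among peaks of 1 to 2 kb the median fold was 2.28 in the windows (interval 2.25 to 2.31) and 2.41 outside (2.39 to 2.43). Among those of 5 to 10 kb it was 2.74 (2.70 to 2.77) and 2.97 (2.89 to 3.04). Below 500 bp the medians were 1.87 and 1.86, with intervals that overlapped. The higher median fold of the windows as a whole thus came with their larger share of wide peaks.

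**Figure D2:**
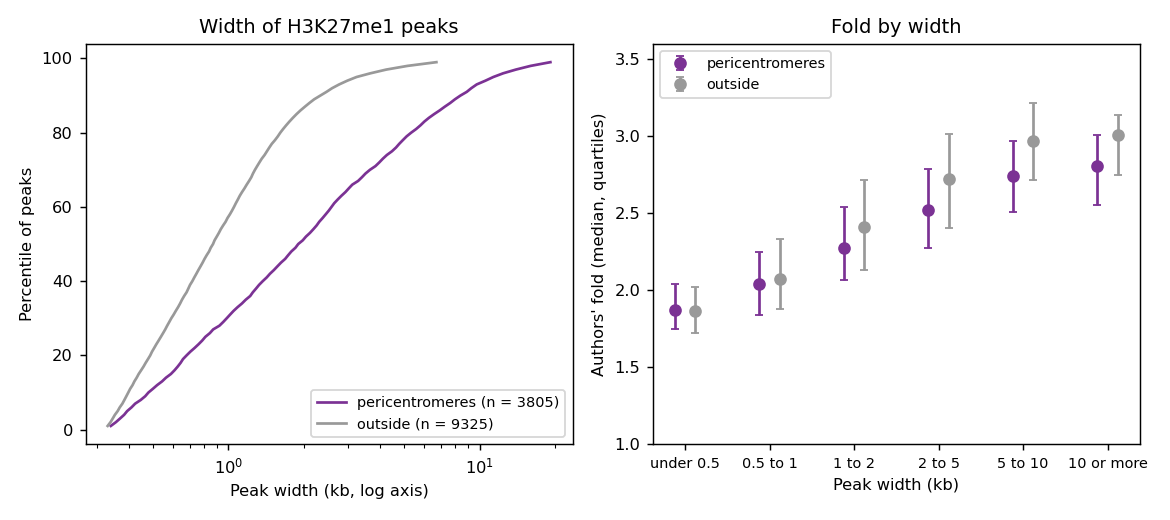
Left, peak width in kb on a log axis against the percentile of peaks, for the 3805 pericentromeric H3K27me1 peaks (purple) and the 9325 outside (grey). Right, the authors' fold by width class, with the median as a point and the quartiles as bars; the purple curve lies at larger widths, while from 0.5 kb upwards the grey medians lie above the purple ones.

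The widest peak of the list lay on chromosome 5 from 11047243 to 11106770, and 16 annotated pseudogenes or transposon genes (AT5G29022 to AT5G29043) shared at least 150 bp with it, the most under any pericentromeric peak. They filled 60.5% of its 59528 bp, no protein-coding gene lay in it, and its fold was 2.63. The second widest pericentromeric peak, on chromosome 4 from 3307172 to 3338351 (31180 bp), held 5 such genes and the protein-coding AT4G06526, and its fold of 1.96 was below the first quartile of all pericentromeric peaks. Great width was therefore not always joined to high fold.

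The other 3 of the 5 widest pericentromeric peaks, and the widest of chromosomes 1 and 2, each held at least 4 pseudogenes or transposon genes. On chromosome 3 the peak from 13924709 to 13953898 (29190 bp, fold 2.80) held 4 pseudogenes or transposon genes. A second peak of chromosome 5, from 11387291 to 11415858 (28568 bp, fold 3.01), held 7, which filled 75.7% of it. On chromosome 3 the peak from 15138928 to 15167333 (28406 bp, fold 3.37) mixed 6 pseudogenes with 4 protein-coding genes, 1 of them MEE38 (AT3G43160), a gene named for maternal effect embryo arrest. The widest of chromosome 1 (16086193 to 16114434, 28242 bp, fold 3.21) held 8 pseudogenes or transposon genes and that of chromosome 2 (5120862 to 5147176, 26315 bp, fold 3.12) held 7. None of these 7 wide peaks shared a base with an H3K4me3, H3K27ac or H3K27me3 peak.

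The peaks of highest fold were of another kind, mostly short and poor in genes. The highest, 4.53, belonged to a peak of 1370 bp on chromosome 4 from 5583294 to 5584663 with no annotated gene and 523 bp under H3K27me3. Next came a peak of 442 bp on chromosome 2 (3367762 to 3368203, fold 4.38), which lay wholly within the pseudogene AT2G07699. The third was wider, on chromosome 5 from 11697320 to 11706237 (8918 bp, fold 4.15), and 4001 bp of it were also under H3K27me3. A peak of 468 bp on chromosome 2 (3322567 to 3323034, fold 4.09) had no gene. The fifth, and the highest of chromosome 1, had 2057 bp from 15177968 to 15180024 and a fold of 3.999, over the pseudogene AT1G40115. On chromosome 3 the highest fold was 3.89, in a peak of 1584 bp from 11742589 without a gene. No H3K4me3 lay in any of the 6.

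By significance another set came first, picked here after its values were seen. Only 6 pericentromeric peaks had a −log10 q over 100, and 4 of them were on chromosome 3. The 3 highest, 854, 693 and 423, lay within 8 kb of each other, between 14196535 and 14203846, beside the 2 annotated ribosomal RNA genes of the windows. Of these genes AT3G41768 had 151 of its 1808 bp and AT3G41979 all of its 164 bp under peaks. The fold of the top one was 2.65, and the 509 pericentromeric peaks within 0.1 of that fold had a median −log10 q of only 14.6. Ribosomal RNA genes are highly repeated in the Arabidopsis genome. The remaining ones lay on chromosome 5 (11726243 to 11738424, −log10 q 196), on chromosome 2 (3614986 to 3626397, 137) and on chromosome 3 (13586920 to 13587765, 118).

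Within the windows the peaks were wider towards the middle. Split by position, the central 50% of each window held 1820 peaks with a median width of 2158 bp (interval 2013 to 2285), and the flanks held 1985 with 1690 bp (1584 to 1789). Median fold hardly differed, at 2.36 in the centre and 2.34 in the flanks. Pseudogenes or transposon genes were touched by 64.8% of central peaks and 47.0% of flanking ones, and protein-coding genes by 14.3% and 28.7%.

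Pericentromeric H3K27me1 seldom lay at the marks of active genes, which were themselves scarce in the windows. H3K4me3 peaks held 652 kb in the windows (21.5 Mb) and 21141 kb in the 97.6 Mb outside. For H3K27ac peaks it was 261 kb and 11714 kb. H3K4me3, found at the start of transcribed genes, shared at least 1 bp with 218 of the 3805 peaks (5.73%, interval 5.01 to 6.52%), against 31.0% of the whole list and 41.4% of the peaks outside (40.4 to 42.4%). H3K27ac, another mark of active chromatin, was touched by 89 peaks (2.34%, 1.88 to 2.87%), where the whole list had 18.8% and the peaks outside 25.5%. As many as 3549 peaks (93.3%) touched none of the 3 other marks, against 55.0% outside.

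H3K27me3, the Polycomb mark, behaved unlike the active marks. It was touched by 40 pericentromeric peaks (1.05%, interval 0.752 to 1.43%), close to the 1.02% of the whole list and the 1.01% outside. With the broad H3K27me3 list 169 pericentromeric peaks (4.44%) touched it, against 5.19% outside. Yet seen from the H3K27me3 list, 37 of its 52 peaks in the windows (71.2%, 56.9 to 82.9%) touched H3K27me1, while outside 92 of 426 (21.6%, 17.8 to 25.8%) did. Of the H3K27me3 bases 75.1% were under H3K27me1 in the windows and 14.6% outside. H3K27me1 covered 60.5% of all bases in the windows and 11.8% of those outside, so 75.1% and 14.6% were each not far above the local level.

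The active marks of the windows stood below that local level. Of 734 H3K4me3 peaks in the windows 215 (29.3%, interval 26.0 to 32.7%) touched H3K27me1, against 18.2% of those outside. Of the H3K4me3 bases in the windows 25.8% lay under H3K27me1. Of 476 H3K27ac peaks in the windows 90 (18.9%) touched H3K27me1, against 13.0% of those outside. Of the H3K27ac bases in the windows 16.4% lay under H3K27me1. Outside the windows 12.1% of H3K4me3 bases and 9.23% of H3K27ac bases lay under H3K27me1, near or below its 11.8% there. Peaks with the different marks also differed in width. The 40 with H3K27me3 had a median of 1982 bp and a median fold of 2.68, the 218 with H3K4me3 had 1426 bp and 2.34, and the 89 with H3K27ac had 1220 bp and 2.26.

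Pseudogenes and transposon genes were the main genes under the peaks. At least 1 of them was touched by 2112 peaks (55.5%, interval 53.9 to 57.1%), against 9.97% of the peaks outside. A protein-coding gene was touched by 830 (21.8%, 20.5 to 23.2%), against 72.8% outside, and no annotated gene by 1042 (27.4%, 26.0 to 28.8%), against 17.0%. Peaks over pseudogenes or transposon genes were the widest, with a median of 3464 bp and a median fold of 2.49. Those on protein-coding genes alone had 1230 bp and 2.27, and those on no gene 903 bp and 2.11. A wide peak has more room to touch a gene, so these widths and contents are not independent.

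The same order held for bases, where the number of peaks plays no part. Pseudogenes and transposon genes made up 34.2% of the windows and 43.4% of the bases under peaks, and 76.6% of their bases were covered. Protein-coding genes made up 13.4% of the windows and 7.06% of the covered bases, with 31.8% of their bases covered. Sequence with no annotated gene stood between, since genes of any kind made up 48.4% of the windows and 51.3% of the bases under peaks. The covered share of pseudogene bases ran from 68.0% on chromosome 1 to 81.3% on chromosome 4, and that of protein-coding bases from 26.98% on chromosome 5 to 39.9% on chromosome 3.

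Counted by gene, with at least 150 bp under peaks as the limit, 2710 of the 3173 pseudogenes and transposon genes of the windows carried H3K27me1 (85.4%, interval 84.1 to 86.6%). Over all nuclear pseudogenes and transposon genes the share was 75.5%, and outside the windows 56.4% (54.0 to 58.8%). More than that limit was common, and 1736 (54.7%) lay under peaks over their whole length. By chromosome the share was 79.4, 81.1, 90.1, 91.2 and 84.7% on chromosomes 1 to 5. Of pseudogenes that the table calls transcribed 70.9% carried the mark in the windows and 37.0% outside, and of the others 86.9% and 68.1%.

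Among protein-coding genes of the windows 801 of 1517 carried H3K27me1 (52.8%, interval 50.3 to 55.3%). Over all nuclear protein-coding genes the share was 26.9%, and outside the windows 25.3% (24.8 to 25.9%). Whole-length cover was found for 370 of them (24.4%). The share was highest on chromosome 3 (66.0%) and lowest on chromosome 2 (45.7%), with 55.7%, 52.8% and 47.8% on chromosomes 1, 4 and 5. On chromosome 2 a single gap between peaks, described below, held 44 of the 488 protein-coding genes of the window.

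**Figure D3:**
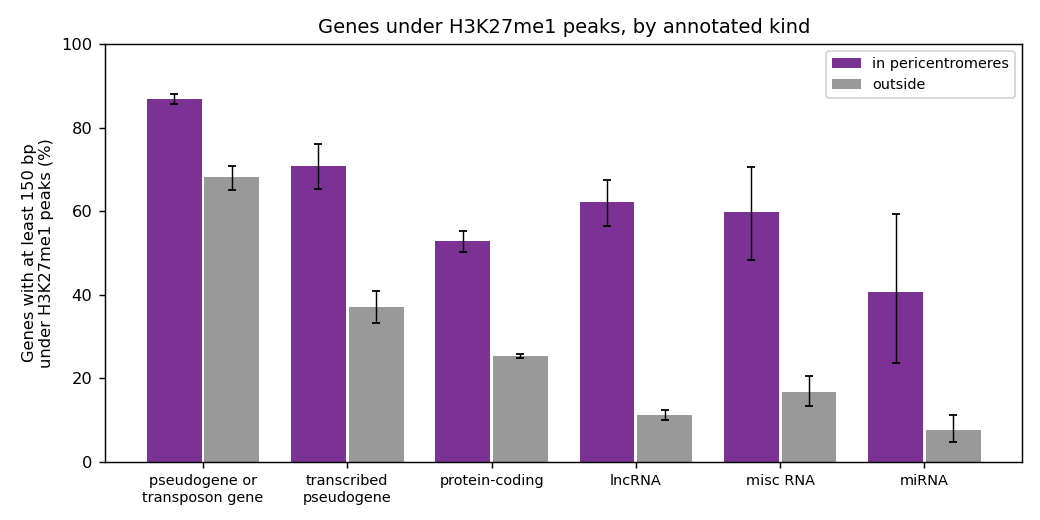
Share of annotated genes, by kind, with at least 150 bp under narrow H3K27me1 peaks, in the windows (purple) and outside (grey), with exact binomial 95% intervals as error bars. In the windows 86.9% of genes called pseudogene, 70.9% of those called transcribed pseudogene and 52.8% of protein-coding genes pass, each above its grey bar.

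Length went with the mark in different ways in these kinds of gene. Protein-coding genes from 500 bp to under 1 kb carried the mark most often, 199 of 316 (63.0%, interval 57.4 to 68.3%), and those of at least 4 kb least often, 45 of 138 (32.6%, 24.9 to 41.1%). Pseudogenes and transposon genes carried it in 69.9% of cases under 500 bp (64.1 to 75.3%) and in 89.4% at 4 kb or more (86.5 to 91.8%). Even so 59 of the 557 in that last class had no base under peaks. A short gene has less room to reach 150 bp, so shares of bases under peaks are given too. The length classes were split at 500, 1000, 2000 and 4000 bp. For pseudogenes and transposon genes the shares were 69.3, 76.4, 79.8, 75.6 and 76.7%, from shortest to longest. Above 500 bp these shares thus did not rise steadily with length. For protein-coding genes they were 52.9, 55.1, 42.9, 30.1 and 16.3%.

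Protein-coding genes with and without H3K4me3 differed. Of the 556 in the windows with at least 150 bp under H3K4me3 peaks 177 also carried H3K27me1 (31.8%, interval 28.0 to 35.9%), against 624 of the 961 without (64.9%, 61.8 to 68.0%). Outside, the shares were 21.7% with H3K4me3 and 37.9% without. Genes with H3K4me3 were longer, with a median of 2407 bp in the windows against 1018 bp without, and the part of length was not tested. H3K27ac gave a like split, with 25.1% of genes that had it and 61.0% of genes that lacked it.

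RNA genes carried H3K27me1 in 275 of 494 cases in the windows (55.7%, interval 51.2 to 60.1%), against 13.4% over all nuclear RNA genes and 9.30% outside. For long noncoding RNA genes it was 62.1% in the windows and 11.1% outside. MicroRNA genes are shorter, and 13 of 32 (40.6%) reached 150 bp under peaks, against 10.7% over all microRNA genes and 7.48% outside. By any overlap the split was complete, as 17 of the 32 lay wholly under peaks and the other 15 had no base there.

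Some of those 17 microRNA genes share a family name. The genes named here were picked from the 17 after their values were seen, so their full cover follows from that choice. Members of these families outside the 17 are not given. How reads of near-identical copies were placed is not known here, so their values are uncertain. MIR5645b, c, d and e, on chromosomes 4, 3, 1 and 4, all lay wholly under peaks, of widths from 2531 bp (MIR5645d, fold 2.95) to 10677 bp (MIR5645c, fold 3.11). So did MIR5638a (fold 2.996) and MIR5638b (fold 2.65), MIR5643a (fold 2.08) and MIR5643b (fold 3.01), and MIR855 (fold 2.26) and MIR401 (fold 3.27), whose peak had 22424 bp. Transfer RNA genes are too short for the limit, and none of all 625 reached 150 bp. In the windows 6 of 32 (18.8%) lay wholly under peaks. Of the bases of these 32 genes 17.8% were covered, against 60.5% of all bases in the windows. Shorter overlaps outside the windows were not counted.

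Transposon families could be told apart by the table's names only for Sadhu, a family of short non-autonomous retroposons. Of its 16 annotated members 7 lay in the windows and 5 of these carried H3K27me1, where 85.4% of all pseudogenes and transposon genes of the windows did. SADHU9-1 and SADHU3-1 lay wholly under peaks (folds 2.07 and 3.42), SADHU7-2 to 90.1%, SADHU1-1 to 70.7% and SADHU1-3 to 67.7%. SADHU1-1 and SADHU1-3 also had 704 and 665 bp under H3K4me3, so 3 of the 5 covered copies were free of it. SADHU3-2 and SADHU4-1 had no base under H3K27me1. SADHU4-1 had 827 bp under H3K4me3 and 615 bp under H3K27ac, while SADHU3-2 had no base under either. Outside the windows SADHU5-2 alone of 9 carried it, against 56.4% of all pseudogenes and transposon genes there, and it lay just left of the window of chromosome 5 in a peak from 9948243 to 9957720. AtMu1 (AT4G08680), a Mutator-like element much used in studies of silencing, had 0 of 2432 bp under any of the 4 marks.

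A list of 66 well-known protein-coding genes of the windows was then examined. H3K27me1 was found on 21 (31.8%, at least 150 bp each), below the 52.8% of all protein-coding genes there, and the other 45 had no base under a peak. These genes were picked for being well studied, and 48 of the 66 carried H3K4me3, 31 H3K27ac and 3 H3K27me3. Of all 1517 protein-coding genes of the windows 556 carried H3K4me3, 346 H3K27ac and 23 H3K27me3. Of the 21 listed genes with H3K27me1 7 also had H3K4me3 (33.3%, interval 14.6 to 57.0%). Among all 801 protein-coding genes of the windows with H3K27me1 the share was 22.1%.

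By known role, the genes of plastid metabolism and light sensing come first. GS2 (AT5G35630), the plastid glutamine synthetase, had 3016 of 3114 bp (96.9%) under peaks, in one of 5911 bp with fold 3.22. GAPB, a subunit of the glyceraldehyde-3-phosphate dehydrogenase of photosynthesis, had 58.6% (fold 2.84), and NPQ4, the PsbS protein of photoprotection, had 49.8% (fold 2.90). CRY1, a blue-light receptor, had 63.6% (fold 2.71). None of the 4 had an H3K4me3 peak, though NPQ4 had 770 bp of H3K27ac. By contrast CH1, which makes chlorophyll b, had 11.3% beside 556 bp of H3K4me3, and the red-light receptor gene PHYC had no base under H3K27me1 and 843 bp under H3K4me3.

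Other enzymes made up a further group. The sucrose synthase gene SUS4 had 58.9% of its length in a peak of 3004 bp (fold 3.21), and XTH4, which remodels xyloglucan of the wall, had 74.99% in a peak of 7159 bp (fold 2.51). ARGAH2, an arginase, had 52.4% (fold 1.97) and was the only one of the 21 with H3K27me3, over 395 bp. ACS11, an enzyme of ethylene synthesis, had 43.6% (fold 2.61) and ALDH3H1, an aldehyde dehydrogenase, 44.2% (fold 2.02) beside 470 bp of H3K4me3. The nitrate reductase gene NIA2 had 24.6% (fold 2.102) beside 2102 bp of H3K4me3, and the acid phosphatase gene PAP26 8.76% (fold 1.70) beside 630 bp.

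Regulators and a few other genes formed the rest of the 21. TT2, a MYB factor of seed coat pigment, had 81.4% under peaks (fold 2.29), and RIPK, a kinase of immune signalling, 74.8% (fold 2.74). RAP2.6, an ERF factor, had 57.6% (fold 3.15) together with 364 bp of H3K4me3. AN3, a coactivator of leaf growth, had 41.2% in the listed peak of highest fold, 3.75, which ran from 10638685 to 10648537 on chromosome 5. The auxin response factor gene ARF23 had 48.4% (fold 3.09), the defence gene LURP1 34.5% (fold 1.97), and BIP1, a chaperone of the endoplasmic reticulum, 52.1% (fold 2.19) beside 1163 bp of H3K4me3. Lowest among these were the bZIP factor gene BZIP63 with 25.9% (fold 1.98), beside 504 bp of H3K4me3, and the homeobox gene KNAT1 with 9.79% (fold 1.70).

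**Figure D4:**
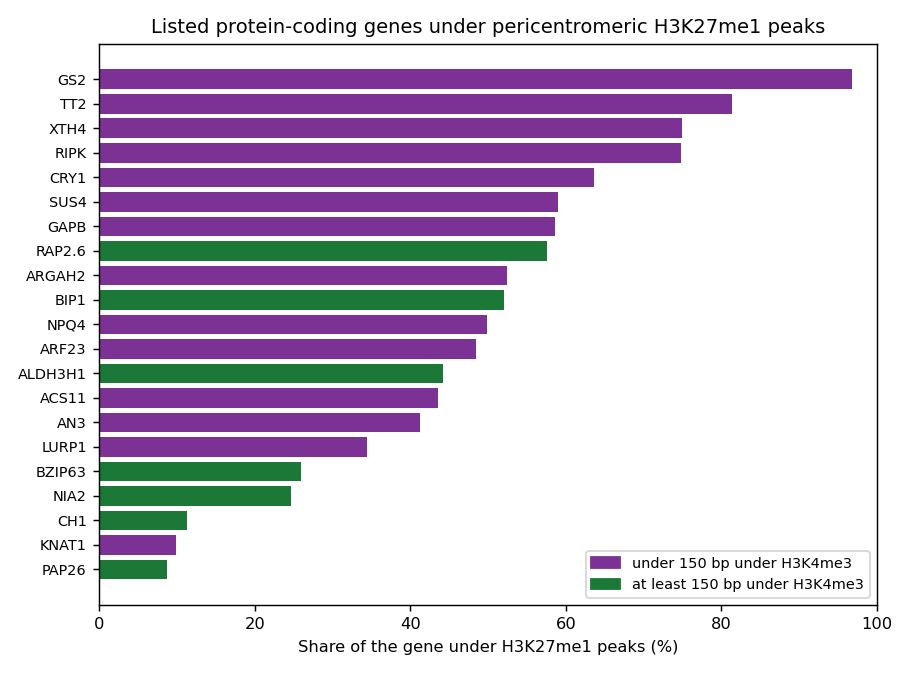
Share of each gene's length under H3K27me1 peaks for the 21 of 66 listed protein-coding genes that carried the mark, with genes that also had at least 150 bp under H3K4me3 in green and the others in purple. GS2 leads with 96.9%, and the highest gene with H3K4me3 is RAP2.6 with 57.6%.

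Of all protein-coding genes of the windows 36.7% carried H3K4me3, and of the 716 without H3K27me1 379 did. Of the 45 listed genes without H3K27me1 41 carried H3K4me3 (91.1%). Among them, picked as examples after their values were seen, were MIS12 of the kinetochore, MCM2 of the replicative helicase, DCL3, the Dicer of small RNAs that guide DNA methylation, ARP6 of a chromatin remodelling complex, the salt tolerance kinase gene SOS2 and DAYSLEEPER, a gene derived from a hAT transposase. Their H3K4me3 ran from 494 bp (DCL3) to 877 bp (MCM2). CALS5, a callose synthase of the pollen wall, was the longest of the list at 12062 bp. It had no base under H3K27me1 and 811 bp under H3K4me3. Of the 18 listed genes for enzymes and proteins of heterochromatin, ATXR5 and ATXR6 included, none lies in the windows, none carried H3K27me1 and all 18 had H3K4me3. Of all protein-coding genes outside the windows 25.3% carried H3K27me1 and 77.5% H3K4me3.

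Of the protein-coding genes that lay wholly under peaks 13 have a name of their own in the table, and they were picked for that after the values were seen. They included the auxin response factor genes ARF14 and ARF15 on chromosome 1 (3067 and 3012 bp), QQS, an orphan gene that affects starch content (887 bp), the calmodulin-like CML30 and the cysteine-rich peptide genes LCR47 and LCR84. H3K4me3 was found on 2 of the 13, the glycosyltransferase gene UGT73B4 with 710 bp and the cytochrome P450 gene CYP705A13 with 984 bp. Of all 370 protein-coding genes wholly under peaks 10 had it (2.70%), and of the 801 with at least 150 bp under peaks 177 (22.1%).

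Gaps between neighbouring peaks were mostly short. The 3800 gaps had quartiles of 459, 773 and 1881 bp (interval of the median 734 to 809 bp) and added up to 8.32 Mb. The shortest gap was 325 bp where the narrowest peak was 324 bp, so a break shorter than that does not appear in the list. Chromosome medians were 891, 839, 731, 689 and 683 bp on chromosomes 1 to 5. Chromosomes 1 and 2 thus had the longest typical gaps, although chromosome 2 was covered to more than chromosome 5.

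Long gaps were few but held much of the uncovered sequence. The 122 gaps of at least 10 kb made up 2.75 Mb (33.0% of all gap bases), the 38 of at least 20 kb 1.67 Mb (20.04%), and the 8 of at least 50 kb 0.854 Mb. On chromosome 1 the gaps of at least 20 kb held 36.3% of the gap bases, the highest share, and on chromosome 3 they held 9.23%, the lowest. Chromosomes 3 and 4 had no gap of 50 kb. Whether a gap holds unassembled or repeated sequence where reads cannot be placed was not examined, since no genome sequence was used here, so gap length and coverage describe called peaks along the assembly.

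H3K4me3 was found in gaps of middle length. It lay in 2.67% of gaps under 1 kb, 19.9% of those from 1 to 5 kb, and 63.4% and 63.1% of those from 5 to 10 and from 10 to 20 kb. Of the 38 gaps of at least 20 kb, however, only 6 held an H3K4me3 peak. A longer gap has more room for a peak, so shares of bases are given too. H3K4me3 made up 0.726, 6.28, 10.7, 9.07 and 0.984% of the bases in these classes, from shortest to longest. Protein-coding genes made up 39.6% and 41.2% of the bases in gaps of 5 to 10 and 10 to 20 kb but 13.4% in the longest class. The long gaps fell into 15 with a protein-coding gene, 15 with pseudogenes or transposon genes only and 8 without the middle of any of these or of an RNA gene.

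**Figure D5:**
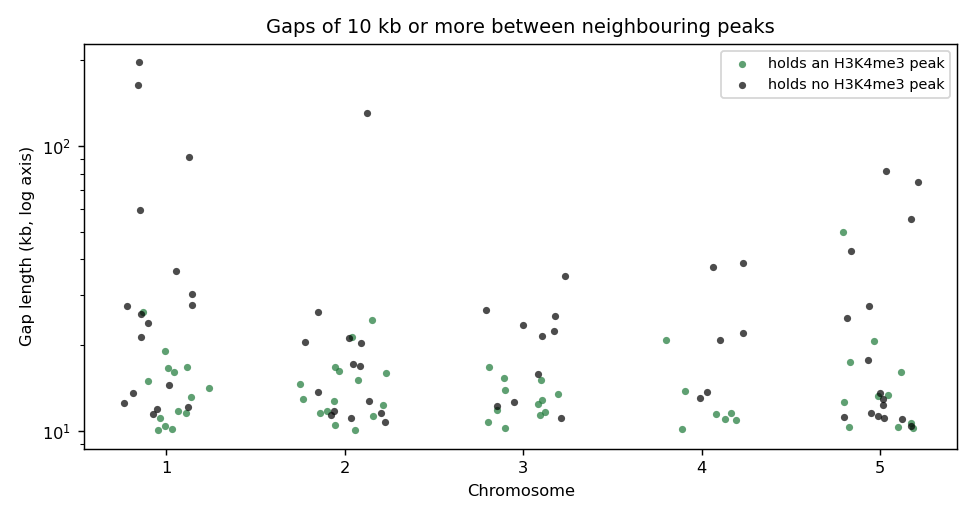
Length in kb, on a log axis, of the 122 gaps of at least 10 kb between neighbouring pericentromeric H3K27me1 peaks, by chromosome, in green where an H3K4me3 peak lies in the gap and in black where none does. Points are spread sideways for legibility; most of the gaps above 20 kb are black, and the longest reaches 197 kb on chromosome 1.

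The longest gap ran over 196771 bp of chromosome 1, from 15217009 to 15413779, with 16 pseudogenes or transposon genes and 1 protein-coding gene. The next, from 14722708 to 14886118 on the same chromosome (163411 bp), held 13 and 1, and the fourth, from 14338866 to 14430357 (91492 bp), held 15 and no protein-coding gene. Annotated pseudogenes and transposon genes were therefore not under peaks everywhere, and 147 of the 463 without the mark lay in gaps of at least 20 kb. The fifth gap, on chromosome 5 from 12795931 to 12877542 (81612 bp), held 6 pseudogenes or transposon genes. On chromosome 3 the longest was 35095 bp from 13714810, and on chromosome 4 it was 38734 bp from 3219847, where no gene is annotated. No H3K4me3 lay in any of these 6.

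The third longest gap was unlike the others in content. It covered 131139 bp of chromosome 2, from 3378426 to 3509564, with 44 protein-coding genes, 21 pseudogenes and 24 RNA genes (72.1% of its bases), and still it held no H3K4me3, H3K27ac or H3K27me3 peak. In Col-0 the pericentromere of chromosome 2 is known to carry a large insertion of mitochondrial DNA. The gene table does not mark it, so which peaks or gaps lie in it was not determined. The short peaks of high fold on chromosome 2, at 3322567 and 3367762, stood just left of this gap.

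Chromosome 5 had a second gene-rich stretch without H3K27me1, at the right border of its window. No peak lay from 14383582 to 14518057 (134476 bp, across the border), where 23 protein-coding genes, 12 pseudogenes and no H3K4me3 peak were found. To its left a gap from 14323747 to 14379228 (55482 bp) held 23 more protein-coding genes and again no H3K4me3. Of the 716 protein-coding genes of the windows without H3K27me1 129 lay in gaps of at least 20 kb, and 379 of the 716 carried H3K4me3.

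The broad H3K27me1 list of the authors gave another picture of the same windows. Its 190 pericentromeric peaks had 1.53 Mb in all, parts beyond the borders included, and broad peaks covered 6.99% of the windows. Of the broad-list bases in the windows 72.2% were also under the narrow peaks. Only 419 of the 3805 narrow peaks (11.01%) touched a broad one, against 23.6% outside. Over the 149 broad peaks with a narrow peak inside or across them the folds of the lists had a rho of −0.142, so whether the fold of a broad peak belongs to its coordinates is unclear, and the broad list was used as an alternative only.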

How the data were processed

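Sperm nuclei were sorted, digested and sequenced as described above. Per the submitters' processing notes, the build was TAIR10 and the tools included MACS2 2.1.0, Bowtie2 2.1.0, Trim Galore 0.4.1, deepTools 2.5.0.1 and SAMtools 1.3, besides Picard and bedtools. How reads with several possible places were treated, which bears on repeats, and the settings were not given in the sources used here. Per the labels, each list pools the replicates of its mark.

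The deposited narrow lists give for each peak its coordinates, the offset of its summit in bp, a fold (a ratio, by the authors) and a significance as −log10 q (a q-value transformed like −log10 p), also the authors'. These columns were used as deposited, with starts counted from 1. The lowest −log10 q of the H3K27me1 list was 2.01. No signal track was used.

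Genes came from a RefSeq table of assembly TAIR10.1, and no gene coordinates are given since the files use TAIR10. The frames were checked with offsets in 250 bp steps to at most 5000 bp between H3K4me3 summits and ends of genes. The best offset was 0 bp in all 5 windows, with median distances of 340 to 450 bp. A gene was assigned to a window by its middle, touched a peak from 1 bp and carried a mark from 150 bp. No genome sequence was used.

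The members and gene lists were chosen with earlier results of these data known. Members were named if among the 5 widest, the 5 of highest fold, or the widest or highest of a chromosome. Gaps were named if among the 5 longest or the longest of a chromosome. Genes were named if listed and with at least 150 bp under peaks; the other genes named were chosen after their values were seen. No test was made, for want of values per sample. The overlap code was tested on simulated intervals. Alternatives changed the q threshold, window borders, placing of peaks, overlap and list. The code used pandas 2.3.3, scipy 1.17.1, numpy 2.4.6 and matplotlib 3.10.9 under Python 3.11.15.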

Additional observations from a re-analysis of the deposited data

How the results depend on the processing

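No paired analysis was possible because each list pools the replicates of its mark and its columns carry no replicate number, and for the same reason no replicate could be left out. The shares of peaks touching H3K27ac or H3K27me3, the median gap and the rank correlation were added after seeing the data. Of 107 comparisons with an alternative 48 stayed within the counting interval (counts within 1.5 times), 58 moved beyond it and 1 changed sign. For coverage that interval was binomial over evenly spaced bases, which are not independent. For the rank correlation it came from Fisher's z transformation. Placing peaks by their middle, or taking any peak that touches a window, moved none of the 13 results.

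With −log10 q of at least 5 coverage was 59.0%, median width 2276 bp, median fold 2.42, median gap 899 bp and the width-fold rho 0.582. Pseudogenes or transposon genes were then touched by 58.8% of peaks, and 84.1% of them and 49.0% of protein-coding genes carried the mark. With −log10 q of at least 10 there were 2101 peaks, coverage was 49.4%, width 3597 bp, fold 2.66, gap 2061 bp and rho 0.304. Of these peaks 67.1% touched pseudogenes, 24.6% protein-coding genes and 1.48% H3K27me3, and 71.5% of pseudogenes and 37.6% of protein-coding genes carried the mark.

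With windows drawn in by 500 kb on each side coverage was 63.4%, width 2063 bp and gap 698 bp. Peaks touched pseudogenes in 60.3%, protein-coding genes in 18.5%, H3K4me3 in 4.17% and H3K27ac in 1.21%, and 56.6% of protein-coding genes carried the mark. With windows widened by 500 kb coverage was 55.2%, width 1706 bp and gap 903 bp, the touched shares 49.7%, 26.1%, 8.25% and 3.98% in the same order, and 47.1% of protein-coding genes carried the mark.

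With the summit inside the feature 34.5% of peaks met pseudogenes, 13.4% protein-coding genes and 3.39% H3K4me3, and with at least 50% of the peak inside 34.6%, 10.9% and 2.94%. With at least 50% of the gene under peaks 78.9% of pseudogenes and 43.5% of protein-coding genes counted. The broad H3K4me3 list was touched by 4.99% of peaks, and the broad H3K27me3 and H3K27ac lists, also added after seeing the data, by 4.44% and 0.105%.

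With the broad H3K27me1 list there were 190 peaks, coverage 6.99%, width 3463 bp, fold 1.07, gap 38896 bp and a rho of −0.351, the one that changed sign; its fold carries the limit given above. Those peaks touched pseudogenes in 53.2%, protein-coding genes in 47.4%, H3K4me3 in 18.4%, H3K27ac in 10.5% and H3K27me3 in 3.68%, and 7.97% of pseudogenes and 9.43% of protein-coding genes carried the mark.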
